A study of Arabidopsis thaliana with 8 samples.

Results

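The comparison described here sets pat1-1summ2-8 plants against path1-4summ2-8 plants of Arabidopsis thaliana, that is, a mutation of PAT1 against a mutation of its paralog PATH1, with no other PAT family mutation on either side. It was chosen by genotype and uses 2 of the 8 genotypes, which are 6 of the 24 RNA sequencing libraries, 3 for each genotype. Plants of both genotypes also carry summ2-8, a mutation of the immune receptor gene SUMM2, and so do all other plants of the study, whose control genotype is summ2-8 alone. The other genotypes are path2-1summ2-8, the 3 pairwise combinations of pat1-1, path1-4 and path2-1 and their triple combination. Genotypes are named below by their mutations besides summ2-8. Above-ground tissue was taken from plants grown for 6 weeks at 21 °C in days of 8 h light and 16 h dark. The pots were of different sizes. The size used for each genotype, and whether a library came from 1 plant or a pool, are not stated in the labels. The p-values below therefore measure spread between libraries. That spread was estimated over all 24 libraries of the 8 genotypes, not over the 6 libraries compared alone. Each mutation is represented by 1 allele.

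PAT1 and its paralogs PATH1 and PATH2 are cytoplasmic proteins that join the LSM1-7 ring at the shortened tail of a messenger RNA and help the enzyme DCP2 remove its cap, after which an exonuclease degrades the transcript. PAT1 is also a substrate of the MAP kinase MPK4 in immune signaling. The receptor SUMM2 guards the cascade that ends in MPK4 and triggers cell death when that cascade is disturbed, and plants lacking PAT1 show SUMM2-dependent autoimmunity, which is the reason such mutants are studied in a summ2 background. The locus PAT1 here is AT1G79090, and not the GRAS-family gene that shares the symbol.

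The 6 libraries held 19482078, 29169867 and 21276608 counts in pat1-1 and 26581585, 14187145 and 20276355 counts in path1-4, of which chloroplast genes took 1.08 to 1.37% in pat1-1 and 0.888 to 1.42% in path1-4. In a principal component analysis of the 6 libraries, component 1 held 47.8% of the variance and separated the genotypes, from -32.6 to -30.7 in pat1-1 and from 19.6 to 43.6 in path1-4. Component 2, with 20.4%, spread the path1-4 libraries from -33.7 in library 3 to 29.5 in library 1, so path1-4 library 3 stood apart from its replicates. The median SD of a gene's log2 CPM (counts scaled by the TMM-normalized library size) over the 3 libraries was 0.106 in pat1-1 and 0.146 in path1-4. The other genotypes had 0.0878 to 0.123, so path1-4 varied most, and a spread shared by all genotypes can understate its own. For lists, counts with 1 library left out are given where a count of 2 or more moved by over 1.5 times. Counts of 0 or 1 gene in a direction, which also moved on many lists, are given for the full set of libraries alone.

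Both mutated loci had fewer reads where mutated. PAT1 had 36.6, 36.0 and 35.4 CPM in pat1-1 against 45.0, 43.4 and 54.8 CPM in path1-4, a log2 fold change (always pat1-1 over path1-4) of -0.41 ± 0.10 (SE) with an adjusted p of 0.00784, which was 0.0644 without path1-4 library 3. PATH1 had 65.1, 63.1 and 65.1 CPM in pat1-1 against 48.2, 44.6 and 54.0 CPM in path1-4, a log2 fold change of 0.39 ± 0.07 with an adjusted p of 0.000618. Each locus was thus lower in the genotype that carries its mutation, with no overlap of the libraries. In the control PAT1 stood at 47.8 ± 1.99 CPM and PATH1 at 62.8 ± 3.08 CPM (SD, n = 3), and against it PAT1 changed by -0.41 ± 0.10 in pat1-1 (adjusted p 0.00538) and PATH1 by -0.36 ± 0.07 in path1-4 (adjusted p 0.0250). PATH2 had 81.5, 80.7 and 89.6 CPM in pat1-1 against 71.1, 69.6 and 95.6 CPM in path1-4 (adjusted p 0.569). SUMM2 had 3.62, 3.35 and 4.00 CPM in pat1-1 against 3.92, 3.57 and 5.35 CPM in path1-4 (adjusted p 0.400). The libraries of the genotypes overlapped for both of these genes. Per length, PAT1 averaged 16.6 ± 0.446 TPM in pat1-1 and 22.2 ± 3.503 TPM in path1-4, PATH1 26.3 ± 0.877 TPM in pat1-1 and 20.2 ± 2.47 TPM in path1-4, and PATH2 36.8 ± 2.40 TPM in pat1-1 and 34.8 ± 7.47 TPM in path1-4, so PATH2 had the highest mean of the 3 paralogs in both genotypes. These counts do not show whether a full transcript is made, since the position of the mutations within the genes is not in the files.

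Of 20346 genes tested, 3285 differed between pat1-1 and path1-4 at an adjusted p below 0.05 and are called here, 16.1% of the genes, with 1617 higher in pat1-1 (7.95%) and 1668 lower (8.2%). Most of the differences were small: the median size among called genes was 0.47 on the log2 scale, 2084 called genes changed less than 1.5-fold and 597 more than 2-fold. Among these larger differences 382 genes were higher in pat1-1 and 215 lower. For 1547 of the genes called higher and 1543 of the genes called lower, all 3 pat1-1 libraries lay beyond all 3 path1-4 libraries, a separation that 30.2% of all tested genes showed. In a fit of the 6 libraries alone 1460 genes were called, 1341 of them among the 3285. Leaving out 1 of the 6 libraries gave 1861 to 3230 called genes, 1911 without pat1-1 library 2 and 1861 without path1-4 library 3. The 3230 genes called without path1-4 library 1 were in part other genes, with 2524 of them among the 3285.

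**Figure D1:**
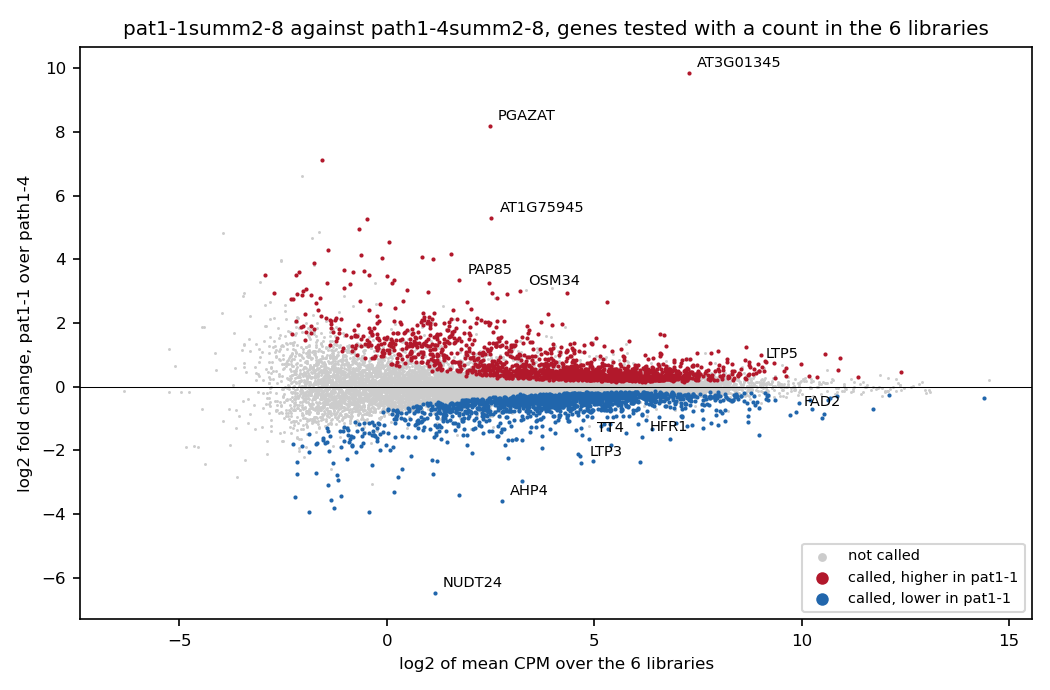
Log2 fold change of pat1-1 over path1-4 (vertical axis) against the log2 of the mean CPM over the 6 libraries (horizontal axis), 1 point per gene with a count in these libraries. Red points are the 1617 genes called higher in pat1-1 and blue points the 1668 called lower; AT3G01345 stands at 9.84 and NUDT24 at -6.47, while most called genes lie within 1 log2 unit of 0.

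The genes of 30 lists (866 members, 839 matched to a gene, 739 distinct genes tested) were used to describe which processes the calls belong to. For each list the counts of members called in each direction and the median log2 fold change are given, beside the 16.1% called and the median of -0.01 over all tested genes. The lists were not tested as sets. Their counts are from the fit of all 24 libraries. With only the 6 libraries in the fit, where 1460 genes were called, many of these counts were smaller.

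Most cold-response genes and 11 of 30 drought genes were lower in pat1-1. CBF transcription factors accumulate in the cold and activate COR and LTI genes, whose products protect membranes and chloroplast stroma against dehydration, and abscisic acid activates an overlapping set in drought through ABF factors. Of 14 cold-response genes tested 9 fell, 1 rose and the median was -0.82. Of 30 genes of abscisic acid and drought 11 fell, none rose and the median was -0.39. KIN1 and LTI78 stand on both lists. Without pat1-1 library 2 the genes that fell were 4 and 7 on these lists, and without path1-4 library 3 they were 5 and 7.

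The 3 CBF genes fell, as did several of the genes they activate. DREB1A, also called CBF3, had 2.95, 2.40 and 2.29 CPM in pat1-1 against 4.54, 7.14 and 7.02 CPM in path1-4, a log2 fold change of -1.28 ± 0.23 with an adjusted p of 0.000796. CBF1 had 1.71, 1.41 and 1.14 CPM in pat1-1 against 2.91, 4.00 and 3.29 CPM in path1-4 (-1.24 ± 0.25, adjusted p 0.00242), and CBF2 had -0.67 with an adjusted p of 0.0487. All 3 pat1-1 libraries were below all 3 path1-4 libraries for each of these factors. Among the genes they activate, LTI78 (RD29A), a marker of drought and cold, had 114, 85.8 and 98.9 CPM in pat1-1 against 147, 239.5 and 301 CPM in path1-4, a log2 fold change of -1.20 ± 0.23 with an adjusted p of 0.00131. COR15B, which encodes a stroma-protecting protein, had 15.8, 14.9 and 13.7 CPM in pat1-1 against 30.4, 41.6 and 38.3 CPM in path1-4 (-1.31 ± 0.17, adjusted p 3.78e-05). Its neighbor COR15A had 144, 108 and 142 CPM in pat1-1 against 215, 320.2 and 255 CPM in path1-4 (adjusted p 0.0120), KIN1 changed by -1.27, the galactinol synthase gene GolS3 by -0.97 and the membrane protein gene COR413-PM1 by -0.45. The exception was COR27, which links cold to the clock, with 9.93, 13.1 and 10.4 CPM in pat1-1 against 4.92, 5.07 and 4.22 CPM in path1-4 (1.24 ± 0.20, adjusted p 0.000331). ICE1, an upstream activator of the CBF genes, had a log2 fold change of -0.03 and was not called.

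In the drought list the 11 genes that fell, of 30 tested, included genes of the synthesis, the signaling and the output of abscisic acid. NCED3, the rate-limiting enzyme of stress-induced abscisic acid synthesis, had 19.4, 13.2 and 15.3 CPM in pat1-1 against 27.2, 26.9 and 31.9 CPM in path1-4 (-0.85 ± 0.16, adjusted p 0.00101). HAI2, a protein phosphatase of the clade that restrains the pathway, had 4.45, 2.85 and 5.38 CPM in pat1-1 against 9.15, 12.8 and 17.2 CPM in path1-4, and its log2 fold change of -1.64 ± 0.31 (adjusted p 0.00149) was the largest on the list. The phosphatase gene ABI2 changed by -0.62 and the bZIP factor genes ABF3 and ABF2 by -0.72 and -0.37. The output genes LTI65 (RD29B), KIN2 and RD22 changed by -1.39, -0.96 and -0.68, and AFP3, an ABI5-binding protein gene, by -0.52. In the control, LTI78 stood at 185 ± 27.8 CPM, HAI2 at 14.8 ± 4.43 CPM and NCED3 at 32.6 ± 5.01 CPM, so that for each of these genes the control mean was nearer to path1-4 than to pat1-1. Members not called included the dehydrin gene RAB18 (AT5G66400), which had a log2 fold change of -0.61 with an adjusted p of 0.0742, and P5CS1, the proline synthesis gene, -0.62 with 0.139.

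The 250 bases before the annotated start of 5 of these genes are shown because CBF factors are known to bind the CRT/DRE core CCGAC and ABF factors the ABRE core ACGTG. The sequences are from the RefSeq copy of TAIR10.1, whose nuclear chromosomes have the lengths of TAIR10, and are written 5′ to 3′ on the strand of the gene, with the motif of each gene in capitals on either strand (GTCGG is CCGAC on the other strand, CACGT is ACGTG).
COR15A (minus strand of chr2:17712331-17712580, CCGAC in capitals): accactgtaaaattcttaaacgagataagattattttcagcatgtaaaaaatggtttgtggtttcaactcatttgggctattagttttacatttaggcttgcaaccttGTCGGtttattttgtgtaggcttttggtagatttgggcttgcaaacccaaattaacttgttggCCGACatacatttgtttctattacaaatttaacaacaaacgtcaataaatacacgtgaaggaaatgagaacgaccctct
LTI78 (plus strand of chr5:21240467-21240716, CCGAC in capitals): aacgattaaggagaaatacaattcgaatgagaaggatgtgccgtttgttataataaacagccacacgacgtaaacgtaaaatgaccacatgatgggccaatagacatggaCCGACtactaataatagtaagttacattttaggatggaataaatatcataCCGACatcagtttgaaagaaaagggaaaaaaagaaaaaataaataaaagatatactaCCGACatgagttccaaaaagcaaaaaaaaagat
GolS3 (plus strand of chr1:3019389-3019638, CCGAC in capitals): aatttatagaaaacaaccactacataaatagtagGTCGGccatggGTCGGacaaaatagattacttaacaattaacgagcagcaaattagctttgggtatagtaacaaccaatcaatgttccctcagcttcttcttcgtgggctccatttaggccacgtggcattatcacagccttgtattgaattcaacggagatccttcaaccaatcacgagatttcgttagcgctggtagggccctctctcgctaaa
HAI2 (minus strand of chr1:2282829-2283078, ACGTG in capitals): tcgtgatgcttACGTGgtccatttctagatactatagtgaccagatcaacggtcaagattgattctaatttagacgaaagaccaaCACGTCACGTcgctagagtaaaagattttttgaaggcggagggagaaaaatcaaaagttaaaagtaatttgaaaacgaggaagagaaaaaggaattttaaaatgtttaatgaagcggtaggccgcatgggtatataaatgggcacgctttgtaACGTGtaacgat
LTI65 (plus strand of chr5:21236771-21237020, ACGTG in capitals): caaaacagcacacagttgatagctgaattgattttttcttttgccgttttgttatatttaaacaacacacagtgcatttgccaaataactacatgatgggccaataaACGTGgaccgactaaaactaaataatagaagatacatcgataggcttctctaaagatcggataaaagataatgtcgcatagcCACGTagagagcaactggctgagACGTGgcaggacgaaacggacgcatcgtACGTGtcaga
CCGAC occurred 2 times before COR15A, 3 times before LTI78 and 2 times before GolS3, and ACGTG 4 times before HAI2 and 4 times before LTI65. Over all 27443 protein-coding genes with such a window, 12% held CCGAC and 22.9% ACGTG on either strand. Of the 9 cold-response genes that fell 4 held CCGAC, among the 14 tested 6. Of the 11 drought genes that fell 7 held ACGTG, among the 30 tested 16. The G-box CACGTG, which contains ACGTG, the W-box core TTGAC and the evening element AAATATCT were searched in the same windows: 6 of the 14 cold-response genes held AAATATCT, which 4.79% of all windows held. A match describes the letters of the window and is not evidence of binding.

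Several genes of shade and growth were lower in pat1-1. In shade, less active phytochrome B lets PIF transcription factors accumulate, which switch on HFR1, PIL1 and HD-ZIP II genes and raise auxin synthesis. Of 19 genes of this list 6 fell and 1 rose, with a median of -0.13, and leaving out any 1 of the 6 libraries left 5 to 7 that fell. HFR1, which dampens the response, had 40.4, 34.96 and 30.6 CPM in pat1-1 against 87.5, 106 and 124 CPM in path1-4, a log2 fold change of -1.59 ± 0.14 with an adjusted p of 1.33e-06. The HD-ZIP II gene HB-2 had 96.5, 95.8 and 93.3 CPM in pat1-1 against 149, 181 and 209.7 CPM in path1-4 (-0.92 ± 0.11, adjusted p 3.30e-05). PIL1 had 14.3, 11.1 and 12.9 CPM in pat1-1 against 20.7, 24.5 and 25.1 CPM in path1-4 (-0.88 ± 0.13, adjusted p 0.000186). The libraries did not overlap for any of these, and the control mean lay between the mutants, at 67.2 ± 10.6 CPM for HFR1, 130.4 ± 14.7 for HB-2 and 16.4 ± 2.96 for PIL1. PHYB, the shade photoreceptor, fell as well, with a log2 fold change of -0.52 ± 0.07, PIL5 (PIF1) by -0.33 and PIF4 by -0.22. The B-box gene STH was the 1 that rose (0.26).

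Of 42 auxin genes 8 fell and 1 rose, with a median of -0.22 (5 fell without pat1-1 library 1, 6 to 10 without any other). The called share was 21.4% beside 16.1% over all genes. The shade-induced IAA29 had 42.3, 55.1 and 52.0 CPM in pat1-1 against 79.1, 92.5 and 107 CPM in path1-4 (-0.90 ± 0.13, adjusted p 9.67e-05). The auxin synthesis genes YUC8 and YUC9 changed by -0.68 and -0.96, the regulator IAA30 by -1.19, the influx carrier LAX2 by -0.65 and the growth genes SAUR22 and SAUR23 by -0.53 and -0.55. IAA7, a repressor of the response, was the gene that rose, with 282, 288 and 303 CPM in pat1-1 against 241, 236 and 216 CPM in path1-4 (0.33 ± 0.06). Of 27 genes of brassinosteroid and gibberellin 8 fell and none rose, with a median of -0.17. Without pat1-1 library 2 the genes that fell were 3, and with only the 6 libraries in the fit they were 4. The 8 were the brassinosteroid synthesis gene BR6OX2 (-0.60), the gibberellin synthesis genes GA20OX1, GA20OX3 and GA3OX1 (-0.62, -1.52 and -0.62), the catabolic gene GA2OX8 (-1.71) and the DELLA repressor genes RGL1, RGL2 and RGA1 (-0.63, -0.75 and -0.20). BIM1, a partner of the brassinosteroid factor BES1 that was not on the list, had 109, 104 and 106 CPM in pat1-1 against 168, 163 and 186 CPM in path1-4 (-0.70 ± 0.07), among the smallest adjusted p of all genes (2.33e-06).

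Of 29 genes of the glucosinolates, the sulfur-rich defense compounds of Brassicaceae, 9 fell in pat1-1, none rose and the median was -0.39. TGG2, a myrosinase that releases the toxic products, had 969, 984 and 1227 CPM in pat1-1 against 1792, 1810.3 and 2093 CPM in path1-4 (-0.84 ± 0.15, adjusted p 0.000991), and TGG1 changed by -0.36. The regulators of the aliphatic branch MYB28 and MYB29 changed by -0.59 and -0.88, the chain elongation gene IMS2 by -1.07 ± 0.21 and the synthesis genes SUR1 and UGT74B1 by -0.51 and -0.41. The synthesis gene CYP79F2 had 2.28, 3.31 and 4.43 CPM in pat1-1 against 7.10, 5.14 and 7.71 CPM in path1-4, and the remaining gene that fell was ESM1 (-0.43). The number that fell was 5 without pat1-1 library 1, 5 without pat1-1 library 2, 5 without path1-4 library 3 and 15 without pat1-1 library 3. MBP1, a myrosinase-binding protein gene outside the list, had 10.0, 6.41 and 14.8 CPM in pat1-1 against 46.3, 51.1 and 58.3 CPM in path1-4, a log2 fold change of -2.33 ± 0.40 with an adjusted p of 0.000579.

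In the flavonoid and anthocyanin list 6 of 25 genes fell and 2 rose, with a median of -0.24. With only the 6 libraries in the fit 1 gene of the list was called lower and 1 higher. TT4, the chalcone synthase that begins the pathway, had 14.7, 11.6 and 16.9 CPM in pat1-1 against 33.0, 44.2 and 56.1 CPM in path1-4 (-1.63 ± 0.21, adjusted p 6.13e-05). The regulators PAP1 (AT1G56650) and MYB111 changed by -1.44 and -1.54, and the anthocyanin genes UF3GT and GSTF12 by -2.78 and -2.60. The regulator MYB12 had 0.155, 0.176 and 0.286 CPM in pat1-1 against 0.388, 0.714 and 0.491 CPM in path1-4. GSTF12 had 0.310, 0.106 and 0.714 CPM in pat1-1 against 0.310, 1.64 and 4.67 CPM in path1-4, so path1-4 library 1 lay within the pat1-1 range. The call of UF3GT was lost without pat1-1 library 2 (adjusted p 0.112) or path1-4 library 3 (0.224), and that of MYB111 without path1-4 library 1 (0.142). TTG1 and HYH, regulators that also act outside the pathway, rose by 0.49 and 0.56. The genes that fell were 3 without pat1-1 library 1, 2 without pat1-1 library 2 and 2 without path1-4 library 3, and the genes that rose were 4 without path1-4 library 1 and 1 without any other library.

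Of 33 genes of jasmonate and wounding 4 fell and 3 rose (21.2% called, 16.1% over all genes), with a median of -0.14. The synthesis gene LOX2 had 833, 776 and 1285 CPM in pat1-1 against 2046, 1671 and 1973 CPM in path1-4 (-0.98 ± 0.23). AOS, which acts after it, had 179, 186 and 221 CPM in pat1-1 against 335, 326 and 339 CPM in path1-4 (-0.77 ± 0.13). CORI3, a jasmonate-induced cystine lyase gene, changed by -1.52 ± 0.28 and the factor gene MYC3 by -0.34. The genes that rose were defense outputs and a hormone-degrading enzyme: the defensin PDF1.3 (2.40 ± 0.54), the protease inhibitor KTI1 (2.67 ± 0.77) and the jasmonate oxidase CYP94C1 (0.69). PDF1.2, the defensin usually taken as a marker, had 25.9, 37.7 and 40.9 CPM in pat1-1 against 13.0, 19.4 and 17.7 CPM in path1-4 and was not called (1.08, adjusted p 0.139).

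Lipid genes moved in both directions within 1 family. Of 31 genes of lipid transfer, cuticle and wax 10 fell and 4 rose, with a median of -0.17. With only the 6 libraries in the fit 3 were called lower and 2 higher. The lipid transfer protein genes LTP3 and LTP4, adjacent on chromosome 5, were lower, LTP3 with 8.32, 2.68 and 14.3 CPM in pat1-1 against 26.6, 42.3 and 60.4 CPM in path1-4 (-2.38 ± 0.51, adjusted p 0.00367) and LTP4 with a log2 fold change of -2.97. In contrast LTP5 had 557, 673 and 602 CPM in pat1-1 against 333, 395 and 386 CPM in path1-4 (0.72 ± 0.10, adjusted p 7.55e-05), and LTP2 and LTP6 changed by 0.92 and 1.03. The wax and cutin genes SHN3, CER4, KCS2, KCS6 and MYB96 changed by -1.99, -1.20, -1.08, -0.52 and -0.51. The laccase gene LAC2 (-1.31), counted on the list, is not a wax gene. The genes that fell were 4 without pat1-1 library 2, 6 without path1-4 library 2 and 4 without path1-4 library 3, and the genes that rose were 2 without pat1-1 library 1 and 2 without path1-4 library 3. FAD2, the desaturase that makes linoleate in the endoplasmic reticulum and is not on the list, had 666, 692 and 676 CPM in pat1-1 against 1227, 1137 and 1161 CPM in path1-4, a log2 fold change of -0.79 ± 0.08 with an adjusted p of 4.73e-06.

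**Figure D2:**
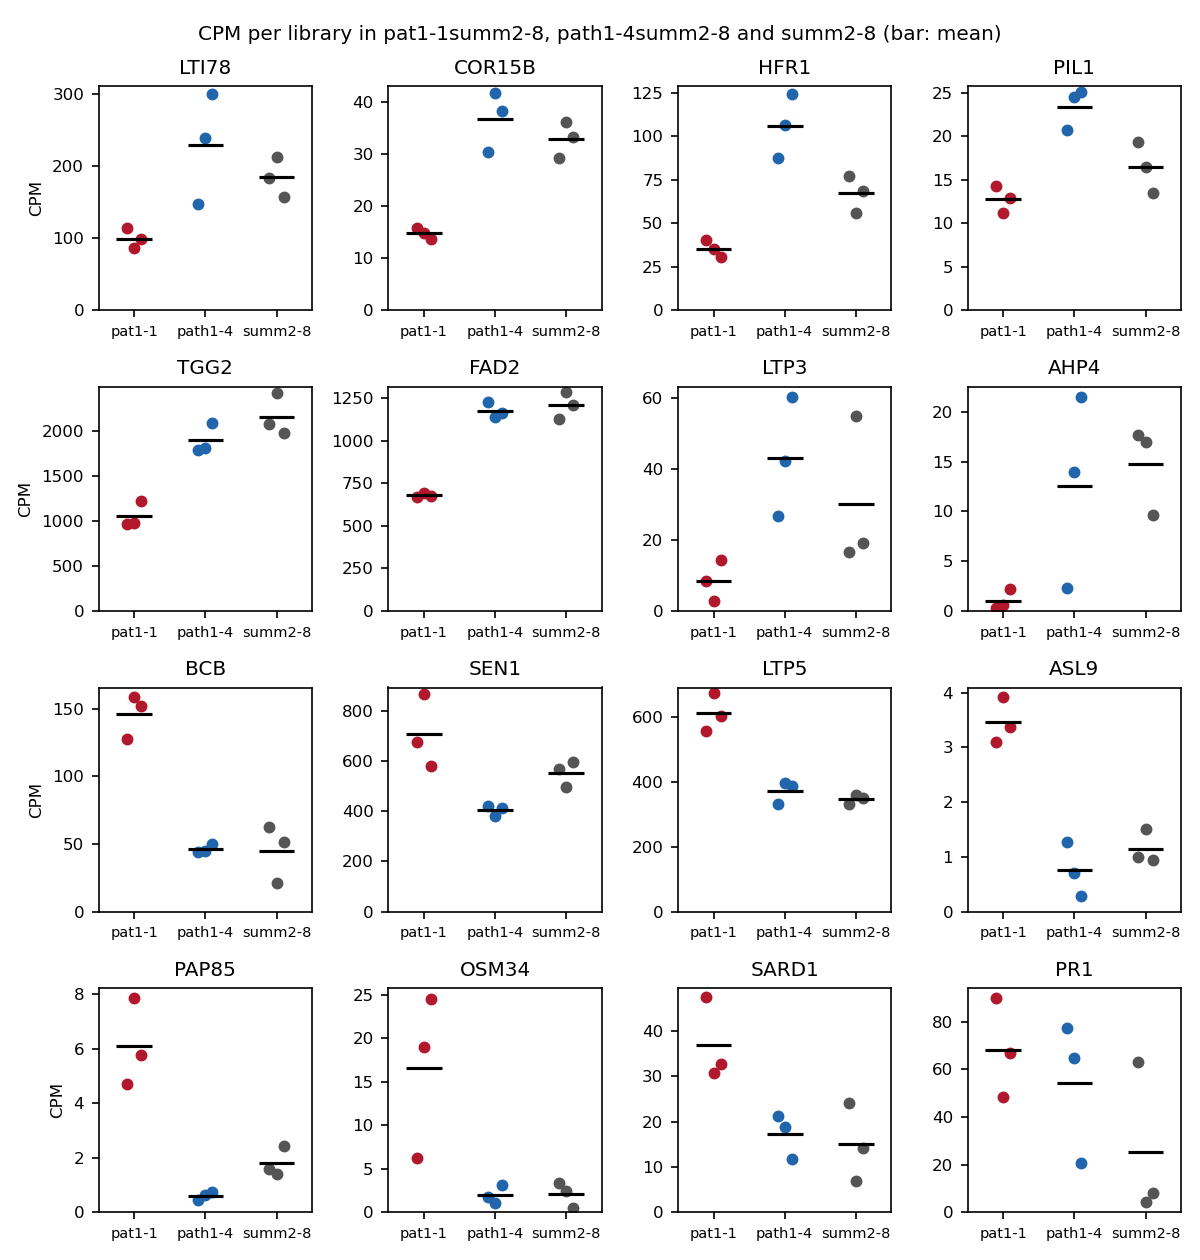
CPM (vertical axes, each from 0) in the 3 libraries of pat1-1 (red), path1-4 (blue) and the control summ2-8 (grey) for 16 genes, with a bar at the mean. For LTI78, COR15B, HFR1, PIL1, TGG2, FAD2, LTP3 and AHP4 the pat1-1 libraries lie below those of path1-4, for BCB, SEN1, LTP5, ASL9, PAP85, OSM34 and SARD1 above them, and for PR1 they overlap; the control overlaps pat1-1 for PIL1, SEN1 and PR1.

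Senescence genes formed the list with the highest median. Of 28 members 11 rose and 1 fell, with a median of 0.64, and leaving out 1 library left 7 to 12 that rose, 7 without pat1-1 library 3 and 7 without path1-4 library 2. BCB, a blue copper protein gene known as a senescence marker, had 127, 159 and 152 CPM in pat1-1 against 44.0, 44.9 and 50.1 CPM in path1-4 (1.65 ± 0.26, adjusted p 0.000258). SEN1 (AT4G35770), induced in darkened and aging leaves, had 675, 867 and 579 CPM in pat1-1 against 421, 382 and 413 CPM in path1-4 (0.80 ± 0.13, adjusted p 0.000502). NAC016, a factor that promotes leaf yellowing, had 6.57, 7.47 and 8.14 CPM in pat1-1 against 3.37, 3.00 and 3.39 CPM in path1-4 (1.18 ± 0.24). The nuclease gene BFN1 had 3.102, 4.76 and 12.7 CPM in pat1-1 against 1.16, 1.14 and 1.47 CPM in path1-4: pat1-1 library 3 was the highest, and without it the adjusted p was 0.0758. SAG29, WRKY45, WRKY6, SAG13, DIN10 and ASN1 changed by 4.17, 0.96, 0.85, 1.13, 1.04 and 0.77. SAG12, expressed in late senescence, had 8.12, 3.38 and 20.7 CPM in pat1-1 against 0.0388, 0.786 and 3.88 CPM in path1-4 and was not called (adjusted p 0.217). ATAF1 was the member that fell (-0.56). Markers of yellowing did not pass the test, with log2 fold changes of 0.35 for NYE1, -0.07 for PPH and -0.12 for ACD1.

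Genes of salicylic acid and immunity had a median of 0.56, and 4 of 31 rose while none fell. In the fit of all 24 libraries the called share of 12.9% was below the 16.1% over all genes, and it depended on the libraries in the fit, as given below. SARD1, an activator of salicylic acid synthesis, had 47.3, 30.6 and 32.6 CPM in pat1-1 against 21.3, 18.9 and 11.7 CPM in path1-4 (1.09 ± 0.34, adjusted p 0.0358). RLP23, a receptor-like protein for a microbial peptide, had 115, 124 and 155 CPM in pat1-1 against 79.5, 68.7 and 44.9 CPM in path1-4 (1.03 ± 0.34, adjusted p 0.0447). NPR1, a salicylic acid receptor, had 66.6, 64.6 and 68.2 CPM in pat1-1 against 51.0, 51.7 and 47.9 CPM in path1-4 (0.41 ± 0.09, adjusted p 0.00302), and SAG101 changed by 0.38. The calls of SARD1, RLP23 and SAG101 depended on single libraries: NPR1 alone was called without pat1-1 library 1, without pat1-1 library 3, without path1-4 library 2 or without path1-4 library 3, and 2 genes without pat1-1 library 2. The marker PR1 had 89.8, 48.3 and 66.7 CPM in pat1-1 against 77.5, 64.8 and 20.8 CPM in path1-4 and was not called (adjusted p 0.785), as was FMO1, which makes the mobile immune signal, with 4.96 ± 4.38 CPM in pat1-1 and 1.13 ± 0.411 CPM in path1-4 (adjusted p 0.117). In a fit of only the 6 libraries 9 genes of the list were called, all higher, where 1460 genes were called in all. Without the summ2-8 control libraries in the fit 9 were called as well, all higher, where 3396 genes were called in all.

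The largest increases in pat1-1 by the naming rule included several genes of low level. PAP85, a vicilin-like seed storage protein gene, had 4.71, 7.86 and 5.76 CPM in pat1-1 against 0.465, 0.643 and 0.737 CPM in path1-4 (3.34 ± 0.35, adjusted p 6.74e-06). The control libraries, at 1.59, 1.40 and 2.42 CPM, lay between the mutants. PAP85 (AT3G22640) lies near the mutated PATH1 locus (start 7874145 on chromosome 3). By locus number it falls between AT3G22420 and AT3G22910, with starts at 7946408 and 8116292. A part of this linkage in its values was not tested. The osmotin-like defense gene OSM34 had 6.26, 19.0 and 24.6 CPM in pat1-1 against 1.78, 1.07 and 3.19 CPM in path1-4 (3.00 ± 0.74). CCD8, a carotenoid cleavage enzyme of strigolactone synthesis, had 2.48, 13.6 and 13.9 CPM in pat1-1 against 0.310, 0.786 and 2.16 CPM in path1-4 (3.24 ± 0.86), and its call was lost without pat1-1 library 2 (adjusted p 0.0530) or path1-4 library 1 (0.0601). The carboxypeptidase-like gene scpl31 had 10.5, 8.25 and 12.1 CPM in pat1-1 against 1.63, 1.14 and 1.08 CPM in path1-4 (2.96 ± 0.43) and stood at 6.10 ± 2.93 CPM in the control, between the mutants. The glycine-rich protein gene GRP9, the BURP-domain gene USPL1 and the glyoxalase gene GLYI4 changed by 2.92, 2.77 and 2.28, the receptor-like protein genes RLP20 and RLP28 by 2.15 and 2.05, and the lectin receptor kinase gene LECRKA4.2 by 2.07. Smaller changes with tight replicates were RABE1e, a GTPase of secretion, with 43.6, 43.6 and 47.3 CPM in pat1-1 against 29.4, 30.9 and 30.4 CPM in path1-4 (0.57 ± 0.05, adjusted p 2.33e-06), the mitochondrial reading frame ORF107A (adjusted p 1.31e-05), the Sadhu retroelement SADHU5-1 (adjusted p 1.49e-05) and the cytochrome P450 gene CYP71A25 (1.33).

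Among the largest decreases not yet described, the drought-induced linker histone gene HIS1-3 had 15.7, 16.8 and 23.4 CPM in pat1-1 against 41.8, 75.8 and 82.4 CPM in path1-4 (-1.83 ± 0.26, adjusted p 9.12e-05). The factor gene MYB47 had 5.64, 4.69 and 6.66 CPM in pat1-1 against 15.6, 20.2 and 28.1 CPM in path1-4 (-1.92 ± 0.24, adjusted p 3.30e-05). The protein kinase gene CIPK25 changed by -1.68 ± 0.36, its call lost without path1-4 library 3 (adjusted p 0.0546), and the microtubule-destabilizing protein gene MDP40 by -1.54 ± 0.30. SHL1, a chromatin reader involved in flowering, had 19.7, 20.3 and 19.4 CPM in pat1-1 against 34.0, 38.0 and 39.9 CPM in path1-4 (-0.91 ± 0.09, adjusted p 2.33e-06), and its control mean of 20.7 ± 1.16 CPM lay with pat1-1. LARP6a, an RNA-binding protein of the La-related family, had 94.4, 90.4 and 94.1 CPM in pat1-1 against 141, 152 and 154 CPM in path1-4 (-0.68 ± 0.07, adjusted p 6.74e-06).

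Cytokinin genes split as well. Of 35 tested 5 fell and 2 rose (20% called, 16.1% over all genes), with a median of 0.06. ASL9, a LOB-domain factor gene whose transcript is a known target of decapping in Arabidopsis, had 3.102, 3.91 and 3.38 CPM in pat1-1 against 1.28, 0.714 and 0.295 CPM in path1-4 (2.12 ± 0.30, adjusted p 0.000108), with 1.15 ± 0.316 CPM in the control. AHP4, a phosphotransfer protein gene that dampens cytokinin responses, had 0.310, 0.634 and 2.19 CPM in pat1-1 against 2.33, 14.0 and 21.5 CPM in path1-4 (-3.59 ± 0.75, adjusted p 0.00286), so the lowest path1-4 library was close to the highest pat1-1 library. The cytokinin oxidase gene CKX5 had 7.50, 9.13 and 9.76 CPM in pat1-1 against 19.8, 19.3 and 27.1 CPM in path1-4 (-1.32 ± 0.17, adjusted p 5.06e-05), CKX6 and CKX7 changed by -0.61 and -0.36, and the activating enzyme gene LOG1 by -0.28. CKX2 had 0.362, 1.37 and 3.48 CPM in pat1-1 against 0, 0 and 0.295 CPM in path1-4 and a log2 fold change of 4.05 at few counts. No type-A response regulator of the list was called, with log2 fold changes from -0.08 for RR3 to 0.48 for RR5. The genes that fell were 2 without path1-4 library 3 and 3 without path1-4 library 2 or any pat1-1 library, and 1 gene rose without pat1-1 library 2 or path1-4 library 2 or 3. CKX7 missed the threshold without pat1-1 library 2 or 3 or path1-4 library 3 (adjusted p 0.0936, 0.0592 and 0.146).

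In the flowering list 4 of 28 fell and 4 rose (28.6% called, 16.1% over all genes), with a median of -0.04. MAF5, a repressor of the FLC clade, had 5.22, 5.67 and 16.5 CPM in pat1-1 against 45.7, 47.1 and 30.9 CPM in path1-4 (-2.18 ± 0.39, adjusted p 0.000848), and its neighbor MAF4 changed by -1.18, while FLC had 2.59, 7.22 and 5.62 CPM in pat1-1 against 3.45, 1.57 and 2.60 CPM in path1-4 (0.98 ± 0.33, adjusted p 0.0486). The promoting factors AGL20 (SOC1), AGL24 and AGL8 (FUL) changed by 0.41, 0.52 and 0.76, and the other genes that fell were FY (-0.29) and RAP2.7 (-0.47). The genes that rose were 2 without pat1-1 library 3 and 2 without path1-4 library 3. In the list of leaf margin, boundary and meristem genes 4 of 32 fell and 4 rose (25% called), with a median of 0.16. Those that fell were the growth-limiting factors TCP2, TCP10 and TCP24 (-0.48, -0.23 and -0.25) and the growth factor GRF2 (AT4G37740, -0.41), and those that rose were PTF1 (TCP13), RPL and KNAT1 (0.73, 0.42 and 1.84) and NGA3, with 3.38 ± 0.730 CPM in pat1-1 and 1.58 ± 0.113 CPM in path1-4. TCP2 had 39.4, 45.2 and 43.7 CPM in pat1-1 against 61.9, 59.2 and 58.1 CPM in path1-4 (-0.48 ± 0.08, adjusted p 0.000418). KNAT1 had 3.62, 1.94 and 4.19 CPM in pat1-1 against 1.202, 0.928 and 0.491 CPM in path1-4, and the control was at 4.02 ± 1.37 CPM. The genes that fell were 1 without pat1-1 library 3, 2 without path1-4 library 1 and 2 without path1-4 library 3.

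Transport and storage of sugars changed in both directions: of 35 genes 8 rose and 5 fell, with a median of 0.01. The monosaccharide importers STP1 and STP4 changed by 0.73 ± 0.13 and 0.56, the vacuolar sugar transporter gene SWEET2 by 0.85 and SUC5 by 1.35. The sucrose exporter SWEET13 had 1.19, 1.76 and 2.00 CPM in pat1-1 against 3.37, 5.71 and 8.84 CPM in path1-4 (-1.83 ± 0.34, adjusted p 0.00131), and SWEET4 changed by -1.02, the phloem loader SUC2 by -0.36, the starch synthesis gene APL3 by -1.06 ± 0.16 and TPS5 by -0.90 ± 0.15. The genes that fell were 3 without pat1-1 library 1 or 2 or path1-4 library 2 or 3, and 8 without path1-4 library 1. Among 29 genes of cell wall loosening 7 rose and 3 fell, with a median of 0.38. XTH18, XTR6 and XTH24 of the xyloglucan-remodeling enzymes changed by 1.94, 1.40 and 0.61 and the expansin EXPA5 by 0.39, while XTH15 fell by 1.05 and PME3 by 0.43. Without path1-4 library 3 the genes that rose were 3. Of 21 ethylene genes 4 rose and 1 fell (23.8% called, 16.1% over all genes), with a median of 0.05. Those that rose were 2 without pat1-1 library 3 and 2 without path1-4 library 1. EFE, an oxidase that makes ethylene from its precursor, had 201, 196 and 213 CPM in pat1-1 against 129, 137 and 122 CPM in path1-4 (0.65 ± 0.09). ACS7 and EBF2 changed by 2.15 and 0.31, the call of ACS7 being lost without pat1-1 library 3 (adjusted p 0.121) or path1-4 library 1 (0.0614), and the precursor synthase ACS8 by -0.96 ± 0.16.

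Of 23 genes of the decay machinery that PAT1 proteins act with 5 rose and 1 fell, with a median of 0.02, and the called share of 26.1% stands beside 16.1% over all genes. The LSM genes LSM1B, LSM3B, LSM2 and LSM3A, subunits of the ring that PAT1 binds, changed by 0.56 ± 0.10, 0.43, 0.43 and 0.37. LSM1B had 8.89, 8.49 and 8.28 CPM in pat1-1 against 6.40, 5.86 and 5.11 CPM in path1-4, with an adjusted p of 0.000796, and stood at 5.34 ± 0.255 CPM in the control. AT1G77680, the cytoplasmic exoribonuclease SOV, rose by 0.30 and the deadenylase gene CAF1a had 20.6, 21.0 and 27.7 CPM in pat1-1 against 42.5, 41.6 and 31.2 CPM in path1-4 (-0.73 ± 0.18, adjusted p 0.00850). The decapping enzyme DCP2 (0.02), its partners DCP1, DCP5 and VCS (-0.04, -0.04 and -0.21) and the exonuclease XRN4 (-0.14) were not called. The genes that rose were 3 without pat1-1 library 1 and 3 without path1-4 library 3, where LSM2 had an adjusted p of 0.0559. In a fit of the 6 libraries alone 1 gene of the list was called higher and 1 lower. In the SUMM2 and MPK4 cascade, MPK4 had 44.8, 43.6 and 40.3 CPM in pat1-1 against 31.1, 33.7 and 32.6 CPM in path1-4 (0.40 ± 0.09, adjusted p 0.00390), and of the other 11 genes the called ones were PAT1 and PATH1 themselves. MEKK1, MKK2 and CRCK3 had log2 fold changes of 0.06, -0.16 and 0.14, and the median of the 12 genes of this list was 0.04.

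The remaining lists held 1 to 7 called members each. Of 52 photosystem and antenna genes 2 rose and 4 fell (median -0.01, 11.5% called), PORA with -0.79 and HEMA1 with 0.48 among them, HEMA1 not called without pat1-1 library 1 or 2 or path1-4 library 3 (adjusted p 0.0779, 0.107 and 0.164). Of 28 clock genes 3 rose and 4 fell (median 0.11, 25% called), and the core genes CCA1 and LHY had log2 fold changes of -0.14 and 0.12 and were not called, while PRR9 and TOC1 changed by -0.42 and 0.31. Of 27 genes of heat and protein folding 3 rose and 2 fell (median 0.04, 18.5% called). HSP17.6A rose, with 1.65, 1.02 and 1.09 CPM in pat1-1 against 0.233, 0.143 and 0.295 CPM in path1-4. Of 24 iron and copper genes 4 rose and 1 fell, of 17 phosphate genes 2 rose and 1 fell, of 18 terpene and sterol genes 4 rose and of 23 genes of unfolded protein and oxidative stress 1 rose. Many of these counts depended on single libraries. The photosystem genes that fell were 1 without pat1-1 library 1 or 3 or path1-4 library 1 and 2 without path1-4 library 2, and those that rose were 0 without pat1-1 library 1 or 2 or path1-4 library 3. The clock genes that fell were 1 without pat1-1 library 1, 2 without pat1-1 library 3 and 1 without path1-4 library 3. The heat genes that rose were 1 without pat1-1 library 2 or 3 or path1-4 library 1 or 2, and those that fell were 1 without pat1-1 library 2 or 3 or path1-4 library 2 or 3. The phosphate genes that rose were 0 without path1-4 library 3 and 1 without any other library. The terpene genes that rose were 1 without pat1-1 library 1 or 2 or path1-4 library 2 and 2 without pat1-1 library 3 or path1-4 library 3. The iron and copper genes that rose were 1 without pat1-1 library 1 and 2 without pat1-1 library 3 or any path1-4 library.

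Markers of other organs and of trichomes were counted as well. Of 8 tested root markers PYK10, the beta-glucosidase of root endoplasmic reticulum bodies, rose (63.6, 40.6 and 42.2 CPM in pat1-1 against 21.4, 16.9 and 12.1 CPM in path1-4, 1.53 ± 0.34) and GL2 fell (-0.48), while the other 12 of the 20 root markers did not pass the filter on low counts. Of 23 floral organ markers 6 were tested and 2 rose, AG with 3.52, 3.03 and 2.81 CPM in pat1-1 against 0.698, 1.14 and 0.589 CPM in path1-4 (1.99 ± 0.30) and PI with 32 counts in pat1-1 and 2 in path1-4. PI lies between BCB and DIN10, which were both called higher, and the strand setting of the counting is not given, so reads of neighbors cannot be told apart from its own. Of 19 seed markers 3 were tested and FUS3 fell (-1.85). Of 16 trichome markers TTG1 rose and GIS fell (-0.61), a called share of 12.5% beside 16.1% over all genes. The medians were 0.31 for root, -0.14 for floral, -0.23 for seed and -0.13 for trichome markers. GL2 was not called without pat1-1 library 1 or 2 or path1-4 library 3 (adjusted p 0.105, 0.0540 and 0.119), and the call of GIS was kept only when pat1-1 library 3 was the library left out. The summed CPM of the tested root markers was 128 to 157 in pat1-1 and 100.2 to 109 in path1-4, that of the floral markers 27.2 to 31.1 in pat1-1 and 26.1 to 31.8 in path1-4, that of the seed markers 1.76 to 6.93 in pat1-1 and 2.48 to 6.78 in path1-4, and that of the trichome markers 298 to 309 in pat1-1 and 270.1 to 289 in path1-4. No count in the 6 libraries was found for 5 root, 8 floral and 10 seed markers. The part of organ proportions in the results was not tested, and in these libraries of whole tissue fewer cells of a type and less RNA per cell cannot be told apart.

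**Figure D3:**
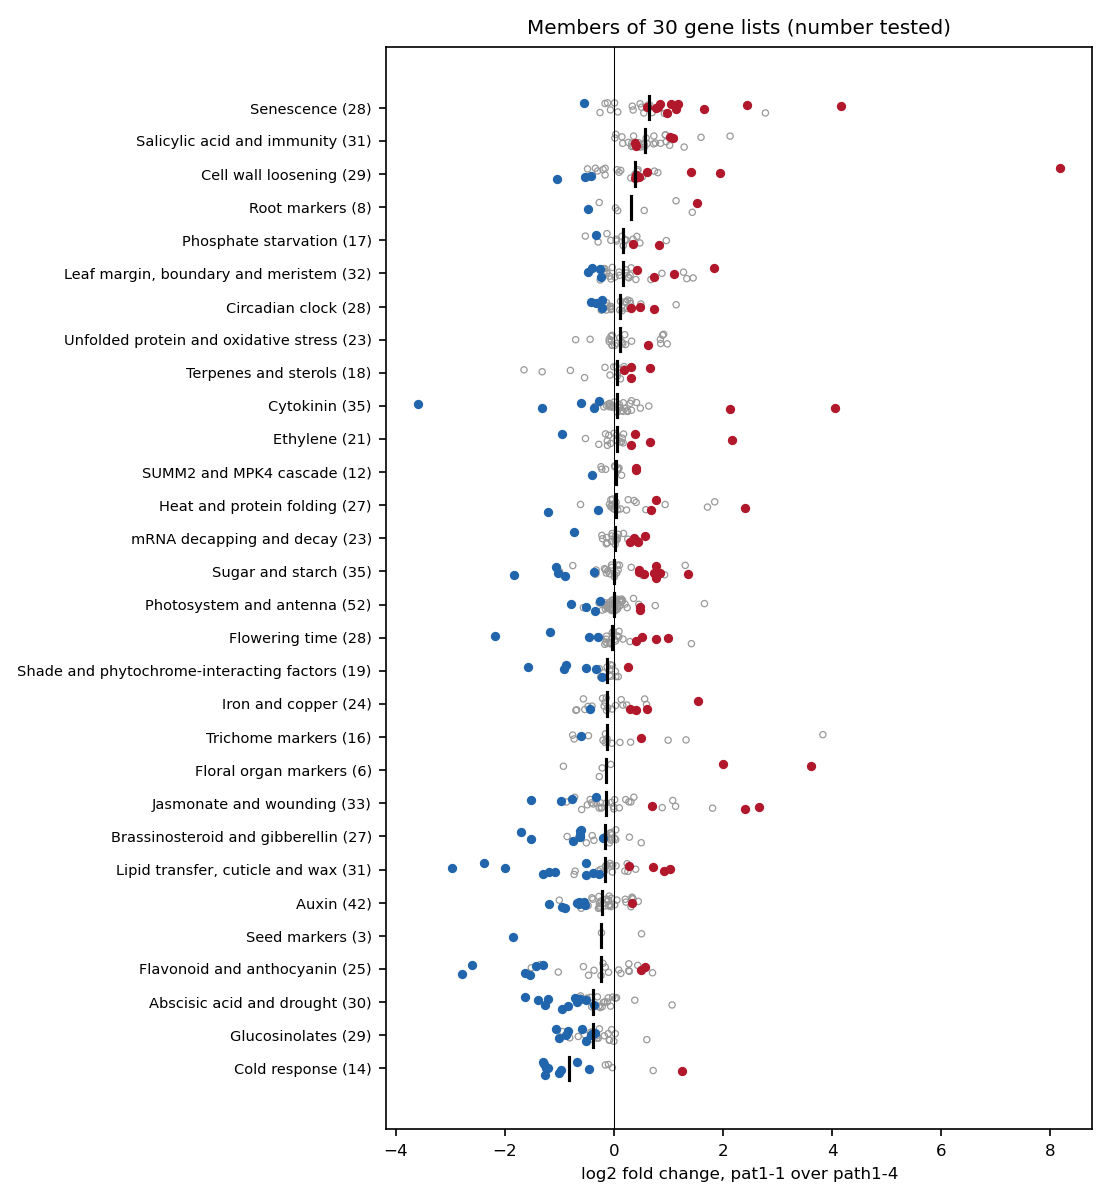
Log2 fold change of pat1-1 over path1-4 (horizontal axis) for the tested members of 30 lists, ordered by median (black bar). Filled points are called members, red higher and blue lower in pat1-1, and open points are not called; cold response has the lowest median (-0.82) and senescence the highest (0.64), and the point beyond 8 is PGAZAT, whose fitted value depends on the prior count.

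At a few loci, picked after their values were seen, 1 of the genotypes was at or near 0. AT3G01345 had 314, 325 and 296 CPM in pat1-1 against 0.155, 0.4999 and 0.442 CPM in path1-4, a log2 fold change of 9.84 ± 0.33 with an adjusted p of 2.47e-14. Its mean was 0.394 CPM in the control, 0.521 in pat1-1path1-4, 3.53 in pat1-1path2-1, 1.13 in the triple combination, 0.190 in path2-1 and 0.945 in path1-4path2-1, so the high level was seen in the pat1-1 single mutant and in none of the other genotypes. AT1G75945 had 11.0, 11.0 and 11.7 CPM in pat1-1 against 0.349, 0.143 and 0.295 CPM in path1-4 (5.29 ± 0.55). Its mean was 12.9 CPM in pat1-1path1-4, 9.91 in pat1-1path2-1 and 11.9 in the triple combination against 0.961 in the control, and it lies 1.23 Mb from PAT1 on chromosome 1. PGAZAT, a polygalacturonase gene, had 706 counts in pat1-1 and 2 in path1-4, a ratio of 309 on scaled library sizes with a 95% counting interval of 85.2 to 2556. NUDT24 had 3 counts in pat1-1 and 243 in path1-4, 92.5-fold lower in pat1-1 (31.3 to 452), with 0.427, 4.50 and 8.30 CPM in the path1-4 libraries. BHLH92 had 45 counts in pat1-1 and 0 in path1-4, at least 13.1-fold higher in pat1-1 against a floor of 3 counts over the group. These intervals cover counting error only.

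The same exchange of mutations can be read in plants that also carry path2-1, since pat1-1path2-1 and path1-4path2-1 were measured in 6 libraries that the main comparison does not use. There 3722 genes were called, 18.3% of those tested, with 1895 higher in pat1-1path2-1 (9.31%) and 1827 lower (8.98%), and 402 changed more than 2-fold. In both exchanges 1250 genes were called in the same direction, which is 38.1% of the calls between the single mutants and 33.6% of the calls between the path2-1 combinations, and 41 were called in opposite directions. Of the 1617 genes called higher in pat1-1, 1390 had a positive log2 fold change in the path2-1 background, with a median of 0.27 against 0.48 in the single mutants. Of the 1668 called lower, 1372 had a negative one, with a median of -0.24 against -0.45. The genes were chosen by their values in the single mutants, so these medians are a description. Without single libraries 2006 to 2956 genes were called in the path2-1 background, 2006 without pat1-1path2-1 library 1, 2198 without pat1-1path2-1 library 2 and 2040 without path1-4path2-1 library 3.

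Among the genes described above, the exchange was called with path2-1 as well for HFR1 (-0.88 ± 0.13), FAD2 (-0.58 ± 0.08), TT4 (-1.01 ± 0.21), HIS1-3 (-2.39 ± 0.27), MBP1 (-3.00 ± 0.42), TGG2 (-1.15 ± 0.15), LTP5 (0.86 ± 0.10), LSM1B (0.46 ± 0.09), PATH1 (0.49 ± 0.07) and AHP4 (-3.13 ± 0.83), each in the direction seen between the single mutants. AT1G75945 had 9.14, 11.4 and 9.23 CPM in pat1-1path2-1 against 0.197, 0.0860 and 0.171 CPM in path1-4path2-1. For the cold and drought genes the values with path2-1 were closer to 0: LTI78 had -0.01 ± 0.22 (adjusted p 0.984), COR15A 0.12 ± 0.25 (0.784) and NCED3 -0.14 ± 0.15 (0.550), and 2 of 14 cold-response genes were lower there and 4 of 30 drought genes. Of these, the difference between the exchanges passed its own test for COR15B (1.01 ± 0.22, adjusted p 0.0255) and missed it for LTI78 (1.19 ± 0.32, 0.0536), NCED3 (0.72 ± 0.21, 0.0875) and COR15A (1.12 ± 0.36, 0.116). Senescence genes called higher were 3 of 28 with path2-1.

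The difference between the exchanges, (pat1-1path2-1 minus path1-4path2-1) minus (pat1-1 minus path1-4), was called for 375 genes, 1.84% of those tested, 243 of them higher (1.19%) and 132 lower (0.649%). Of the 375, 217 were called between the single mutants and 41 were called in both exchanges with opposite signs. Leaving out 1 of the 12 libraries gave 85 to 420 such genes, 85 without pat1-1path2-1 library 1 and 111 without path1-4path2-1 library 3. The number was 125 without pat1-1 library 2, 159 without path1-4path2-1 library 2, 181 without pat1-1path2-1 library 2, 217 without path1-4 library 2, 233 without pat1-1 library 3 or path1-4path2-1 library 1, and 247 without pat1-1path2-1 library 3. DESeq2 called 646 genes. SHL1 had 25.1, 30.1 and 31.3 CPM in pat1-1path2-1 against 24.8, 24.2 and 23.0 CPM in path1-4path2-1, a log2 fold change of 0.26 ± 0.08, where the single mutants gave -0.91 (difference 1.17 ± 0.12, adjusted p 2.10e-05). ASL9 had a difference of -1.57 ± 0.40 (adjusted p 0.0475) and PAP85 one of -2.68 ± 0.51 (0.0134), both being higher in pat1-1 and not called with path2-1. The defensin PDF1.3 was higher in pat1-1 and lower in pat1-1path2-1 (-1.78 ± 0.55), with a difference of -4.18 ± 0.78 (adjusted p 0.0116). The deadenylase CAF1a gave 0.32 ± 0.18 with path2-1 and a difference of 1.06 ± 0.25 (0.0348).

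**Figure D4:**
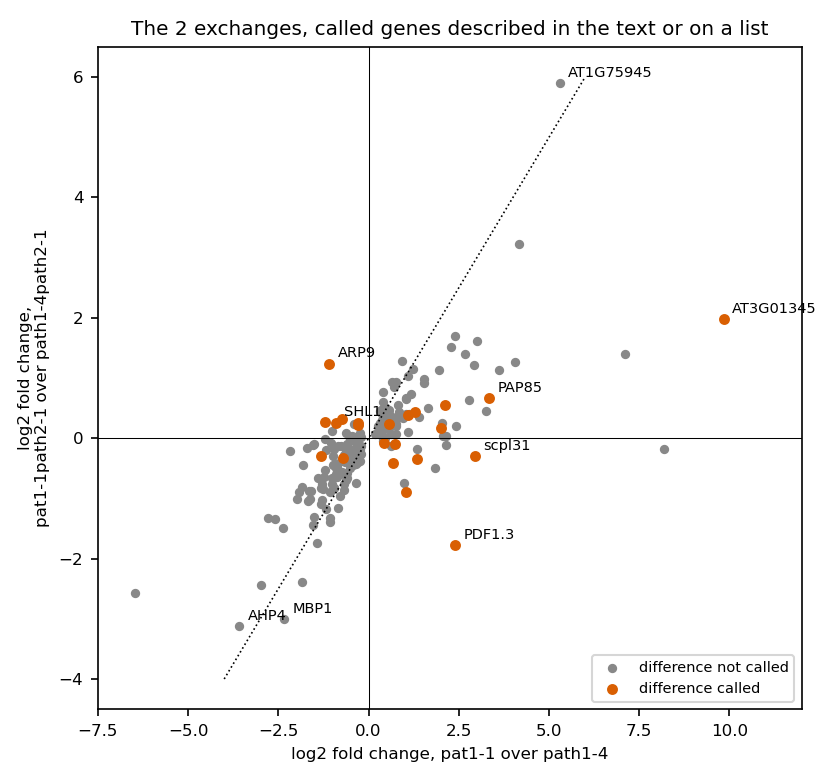
Log2 fold change of pat1-1path2-1 over path1-4path2-1 (vertical axis) against that of pat1-1 over path1-4 (horizontal axis) for genes called between the single mutants that are on a list or named. The dotted line marks equal values; orange points are genes whose difference between the exchanges was called, such as AT3G01345 (9.84 and 1.98), PDF1.3 (2.40 and -1.78) and scpl31 (2.96 and -0.29).

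Means of the other genotypes are set beside the 2 single mutants without a test, since the genes were chosen on libraries of the comparison. The control mean was nearer to path1-4 than to pat1-1 for 1418 of the 1617 genes called higher and for 1454 of the 1668 called lower, and the path2-1 mean for 1393 and 1460. The mean of pat1-1path1-4, which carries both mutations, was nearer to pat1-1 for 1485 and 1523 of these genes. SHL1, CYP71A25 and KNAT1, with control means of 20.7, 9.71 and 4.02 CPM, are among the genes whose control was nearer to pat1-1.

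Over all 24 libraries, 395 tested genes (1.94%) were higher in every one of the 12 libraries that carry pat1-1 than in every one of the 12 that do not, and 327 (1.61%) were lower, a count made after the values were seen. Of these, 348 and 291 were called between the single mutants. The 6 libraries of the comparison are among the 24, so these genes show no overlap in it by construction. Their share of calls is therefore no separate support, and the same 6 libraries served to choose many of the genes named below. The same separation by path1-4 held for 2 genes, both higher in its carriers (AT3G29130 and AT3G42100), and by path2-1 for 2 genes. Among the genes separated by pat1-1, TT4 ranged from 4.91 to 22.0 CPM in its carriers against 33.0 to 56.1 CPM in the others, and HIS1-3 from 2.14 to 23.4 against 35.5 to 110.8 CPM. FAD2 ranged from 263 to 692 CPM against 724 to 1285 CPM, MYB47 from 1.97 to 9.71 against 13.4 to 28.1 CPM, and TGG2 from 644 to 1328 against 1367 to 2421 CPM. Among those higher in carriers, EFE ranged from 192 to 246 CPM against 101 to 137 CPM, LTP5 from 557 to 681 against 295 to 442 CPM, RLP23 from 104 to 187 against 21.0 to 92.1 CPM and LSM1B from 7.67 to 12.3 against 5.09 to 6.40 CPM. SARD1, NPR1, MPK4, IAA7, OSM34, NAC016 and ASL9 were higher in all carriers too, and AHP4, CKX5, DREB1A, HAI2, YUC8, TCP2, BIM1, LARP6a and PAT1 itself were lower in all carriers. Some of these separations were narrow. PAT1 reached 43.33 CPM in the carriers and was at least 43.35 CPM in the others, and AHP4 reached 2.19 against at least 2.33 CPM. SARD1 was at least 24.6 CPM in the carriers and reached 24.1 CPM in the others.

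**Figure D5:**
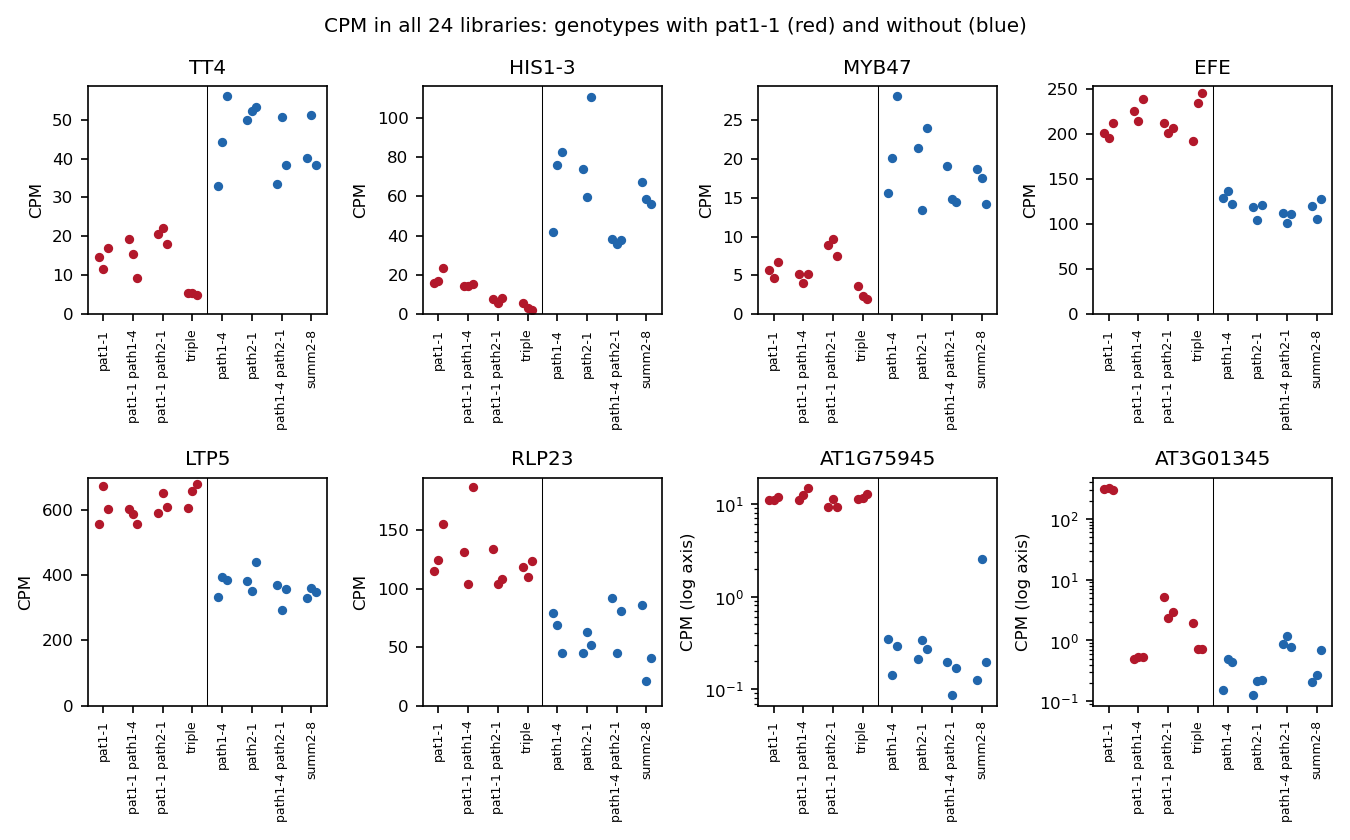
CPM in all 24 libraries for 8 genes, by genotype, with the 4 genotypes that carry pat1-1 in red on the left and the 4 without it in blue on the right (log axis for AT1G75945 and AT3G01345, axes from 0 for the others). TT4, HIS1-3, MYB47, EFE, LTP5, RLP23 and AT1G75945 separate the carriers from the others, while AT3G01345 is high in the pat1-1 single mutant alone.

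Several properties of the genes went with the calls. By length, taken from the ratio of count to TPM, the shortest of 5 equal groups had 412 genes higher and 162 lower in pat1-1, and the longest had 189 higher and 491 lower. After a trend with length was removed from each library 3212 genes were called, 2807 of them among the 3285, and the cold-response list still had 9 genes lower and the senescence list 11 higher. By expression, 9.43% of the lowest of 5 groups and 21.9% of the highest were called. Chromosomes 1 to 5 had 15.9 to 16.8% of their genes called, and within 1 Mb of PAT1 77 of 387 genes were called, 19.9%, and within 1 Mb of PATH1 62 of 353. Of 346 lncRNA genes 15 were called. Pairs of near-identical genes named above (KIN1 and KIN2, COR15A and COR15B, the CBF genes, LTP3 and LTP4, SAUR22 and SAUR23, LSM3A and LSM3B, the PDF1 genes) can share reads, and how the authors counted such reads is not given in the sources used here, so their separate values are less certain.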

How the data were processed

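RNA from above-ground tissue was extracted with the NucleoSpin RNA Plant kit and 1 µg was sequenced on a BGISEQ-500, per the labels. Reads were aligned with STAR 2.5.1b and the build was TAIR10, per the submitters' processing notes; how reads were counted, with which annotation and strand setting, is not given in the sources used here. Values used were whole-number counts per gene and TPM, both deposited by the authors; the ratio of count to TPM was constant within 0.1% for all 28486 genes with a count, so both tables hold the same measurement. The table numbers its libraries 1 to 24, and the labels give 3 numbers to each genotype; replicates 1 to 3 follow that order.

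Counts were tested with edgeR 4.0.16 (R 4.3.3, limma 3.58.1): filterByExpr left 20346 of 37336 genes, TMM scaling, a quasi-likelihood fit of 24 libraries with 1 term per genotype, two-sided F tests and Benjamini-Hochberg adjustment over all genes tested in each of 3 contrasts. Calls use an adjusted p below 0.05. The common dispersion of 0.0119 equals a biological variation of 10.9% (coefficient of variation). SE is the log2 fold change divided by the square root of F, and SD is over 3 libraries. The procedure was checked on simulated counts, where 62.7% of 1.5-fold, 94.0% of 2-fold and 100% of 4-fold changes were recovered. Of 178 calls 7 were false. The simulated counts used the dispersions of the fit, so the check does not cover a larger spread within 1 genotype. Named genes are the mutated loci, in each direction the 12 largest changes of genes that were called and had a symbol, a mean log2 CPM of at least 1 and no overlap of libraries, the 5 smallest adjusted p, from each list up to 4 called members with the lowest adjusted p, and 3 genes in each direction for the difference; other list members are given as values, and a few results are not reported here. The comparison, the lists and the alternatives were chosen with earlier results of these data known. Wrong symbol matches in the lists were corrected after the files were read. Alternatives were DESeq2 1.42.0, RLE factors, no filter, fewer libraries, no organelle genes, removal of a length trend and leaving out libraries.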

Additional observations from a re-analysis of the deposited data

Results flagged for a closer look

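The exchange of pat1-1 for path1-4 differed with and without path2-1 in 375 genes by the test of the difference itself (edgeR quasi-likelihood). The largest differences in each direction are given with the value in the path2-1 background after that in the single mutants. SQS2, a squalene synthase gene, had -0.80 ± 0.38 between the single mutants and 4.83 ± 0.65 with path2-1, a difference of 5.64 ± 0.77 (adjusted p 0.000724). It had 1.503, 5.24 and 3.26 CPM in pat1-1path2-1 against 0.148, 0 and 0.142 CPM in path1-4path2-1, and averaged 0.115 CPM in path2-1 and 8.79 CPM in the control. ARP9, an actin-related protein gene, had -1.09 ± 0.21 and 1.24 ± 0.20, a difference of 2.33 ± 0.29 (0.000386); path1-4 library 1 was the highest of the singles at 34.3 CPM. HSP70T-2 had -1.21 ± 0.25 and 0.26 ± 0.24, a difference of 1.47 ± 0.34 (0.0296). In the other direction scpl31 had 2.96 ± 0.43 and -0.29 ± 0.35, a difference of -3.25 ± 0.56 (0.00680), CYP71B36 1.03 ± 0.26 and -0.89 ± 0.27, a difference of -1.92 ± 0.38 (0.0142), and CYP71A25 1.33 ± 0.14 and -0.35 ± 0.12, a difference of -1.68 ± 0.18 (4.36e-05). Without single libraries the difference missed the threshold for HSP70T-2 in 8 of 12 cases and for CYP71B36 without pat1-1path2-1 replicate 1.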

How the results depend on the processing

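With only the 6 libraries in the fit the calls between pat1-1 and path1-4 numbered 1460, 848 higher and 612 lower. Leaving out 1 library gave 1861 to 3230 calls, 960 to 1501 higher and 901 to 1729 lower. The other settings (DESeq2, RLE factors, no filter, no control libraries, no organelle genes, length trend removed) gave 2838 to 3396. For the exchange with path2-1, leaving out 1 library gave 2006 to 2956 calls, 1068 to 1466 higher and 902 to 1490 lower. For the difference between the exchanges DESeq2 called 646 genes, 391 higher and 255 lower, and leaving out 1 library gave 85 to 420, 54 to 246 higher and 31 to 174 lower. The cause was not tested. Of 138 genes followed singly, 135 were called, 98 kept their call in every setting, 37 lost it in at least 1 (20 with only the 6 libraries, 1 with DESeq2) and none reversed. No paired analysis was possible because no 2 genotypes share a library number. Of the 4070 genes in the lowest of 5 expression groups 384 were called, and a gene that was not called is not thereby shown to be equal.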

Other observations

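With 16.1% of single genes called, some neighbors are called together without any link between them. Of 20189 pairs of adjacent tested genes, 53 had both members called with more than a 2-fold difference, and 46 of these pairs moved in the same direction and 7 in opposite directions. Among all 561 adjacent pairs with both members called, 351 moved in the same direction and 210 in opposite directions. Pairs lower in pat1-1 included COR15B and COR15A, LTI65 and LTI78 (log2 fold changes of -1.39 and -1.20), LTP4 and LTP3 (-2.97 and -2.38) and MAF4 and MAF5 (-1.18 and -2.18). Pairs higher in pat1-1 included NUDT18 and PCR2 (1.94 and 1.89) and JAL31 and JAL33 (1.31 and 1.68). Some of these pairs are tandem copies that can share reads.

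Of 135 tested genes described as transposable element genes, 24 were called, 11 higher and 13 lower in pat1-1, a share of 17.8% beside 16.1% of all tested genes.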
